A study of Homo sapiens with 6 samples.

Results

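Aminoacyl-tRNA synthetases join each amino acid to its tRNA, so every step of protein synthesis rests on them. The 37 genes described here are 19 cytosolic synthetases, 3 scaffold proteins of the multisynthetase complex and 15 synthetases of the mitochondrial matrix. They were taken by name from a table of 18806 genes, which lists the cytosolic enzymes under their older symbols (AARS for AARS1), and all 37 were in the table and passed the filter on low values. Valyl-tRNA synthetase was not among these names and is given with the related genes further on.

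Poly(A)+ RNA was sequenced from Mono-mac-6 cells, an established human leukemia line of monocytic type with the MLL-AF9 fusion gene. All libraries came from a single Cas9 clone that had received a lentiviral guide and been kept under drugs, with hygromycin B at 200 µg/ml and blasticidin at 10 µg/ml. The groups were sgDDX6.1 and sgDDX6.2, a pair of guides against the RNA helicase gene DDX6, and the control guide sgNS, with 2 libraries each and 6 in all. Harvest at 8 days after infection is given for every library, though the stated selection of 1 to 2 weeks leaves that day uncertain. A single clone stands for the line, and separate cultures are not stated for the 2 libraries of a group, so a p-value here speaks only of the spread among these 6 libraries, which may be technical.

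In animal cells 8 of the cytosolic enzymes sit together in the multisynthetase complex, held by the scaffolds AIMP1, AIMP2 and EEF1E1, and the others work free in the cytosol. Mitochondria translate their own few mRNAs with a separate set of synthetases, encoded in the nucleus and imported, while GARS and KARS each supply both compartments from 1 gene. Enzymes fall by the fold of the catalytic domain into class I and class II. When amino acids run short, uncharged tRNA activates the kinase GCN2, and the transcription factor ATF4 then raises genes of amino acid supply, many cytosolic synthetases among them. ATF4 binds with C/EBP partners to a composite element whose core reads TGATGNAA, as in the promoter of asparagine synthetase (ASNS).

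Values are TPM, a share of the library scaled to transcript length, which can be compared between genes but carries no read depth. Over the whole table, DDX6 had 53.2 TPM in sgDDX6.1 and 52.9 TPM in sgDDX6.2, against 101 TPM in sgNS (means of 2 libraries), a log2 fold change of -0.91 (SE 0.04, adjusted p = 4.61e-09), so the libraries part as labelled. Of 10 monocytic markers LYZ, SPI1, CD68, CD33, PTPRC and MPO had group means of 29.9 TPM or more, FCGR1A had 14.6 TPM or more, and ITGAM, CSF1R and CD14 had 4.47 TPM or less. Of 10 markers of other cells CD3E, CD3D, MS4A1 and HBB were listed at 0, COL1A1 and EPCAM had group means of 0.115 TPM or less and KRT18 of 19.7 TPM or less, while PECAM1 averaged 137 TPM in sgDDX6.1 and 196 TPM in sgDDX6.2, against 65.8 TPM in sgNS; the part of these markers in the results was not tested. In bulk RNA, fewer cells of a type and less RNA per cell cannot be told apart.

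The core TGATGNAA, searched on both strands from 250 bases before to 50 bases after each RefSeq transcript start (GRCh38.p14), was found for 8 of the 33 members that the promoter table holds. DARS, LARS, YARS and AARS2 had no window there. Of 15843 protein-coding genes with a window, 571 (3.6%) held the core. The stretches are shown because the genes that carry them can be set beside the values that follow. Each is 30 bases long and is read 5′ to 3′ on the strand where the core reads as spelled, with the core in capitals.
AARS, chr16:70289675-70289704, plus strand: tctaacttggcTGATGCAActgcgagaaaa
CARS, chr11:3057407-3057436, plus strand: ttcctagaatcTGATGCAAccgccgccccg
GARS, chr7:30594834-30594863, minus strand: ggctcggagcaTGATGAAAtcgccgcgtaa
IARS, chr9:92293692-92293721, plus strand: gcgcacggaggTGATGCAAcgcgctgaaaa
MARS, chr12:57488053-57488082, minus strand: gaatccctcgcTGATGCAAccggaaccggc
NARS, chr18:57621804-57621833, minus strand: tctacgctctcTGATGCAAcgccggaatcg
TARS, chr5:33440956-33440985, minus strand: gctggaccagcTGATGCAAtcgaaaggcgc
YARS2, chr12:32756076-32756105, minus strand: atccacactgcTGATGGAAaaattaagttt
ASNS, chr7:97872458-97872487, minus strand: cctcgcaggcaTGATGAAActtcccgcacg
Counted from the start base as 0, the leftmost base of the core in the direction of the gene lay at -187 in AARS, -2 in CARS, -33 in GARS (from the second of its windows), -13 in IARS, -4 in MARS, 14 in NARS, 2 in TARS, -197 in YARS2 and -68 in ASNS. AARS, CARS, IARS, MARS, NARS and TARS share the core TGATGCAA, which 143 of the 15843 protein-coding genes (0.903%) hold; that spelling was singled out after the matches were seen. GARS has TGATGAAA, the core that ASNS also has, and YARS2, the mitochondrial member, has TGATGGAA. No match was found for the serine enzyme PSAT1, which is set beside ASNS further on, or for DDX6. CARS, TARS and ASNS matched in the first of their windows and not in the second. A match is a run of letters and no measured binding site. The sequences of WARS, SARS and EPRS, without a match in this window, say nothing of the factor.

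With DDX6 targeted, most cytosolic synthetases fell, while more mitochondrial synthetases rose than fell. Averaged over both guides against sgNS, 17 of the 22 cytosolic enzymes and scaffolds fell and 3 rose at a limma adjusted p under 0.05, with a median log2 fold change of -0.97. Of all 11151 genes tested, 32.9% were called lower and 33.8% higher (66.7% in all), with a median of 0.0008. Of the 22, 11 fell at least 2-fold, against 2.39% of all genes tested. All 4 sgDDX6 libraries lay below both sgNS libraries in 18 of the 22 and above them in 3, beside 31.9% and 31.5% of all genes tested. Of the 15 mitochondrial enzymes, 8 rose and 2 fell, with a median of 0.19. The plot of changes by guide shows the members by role.

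**Figure D1:**
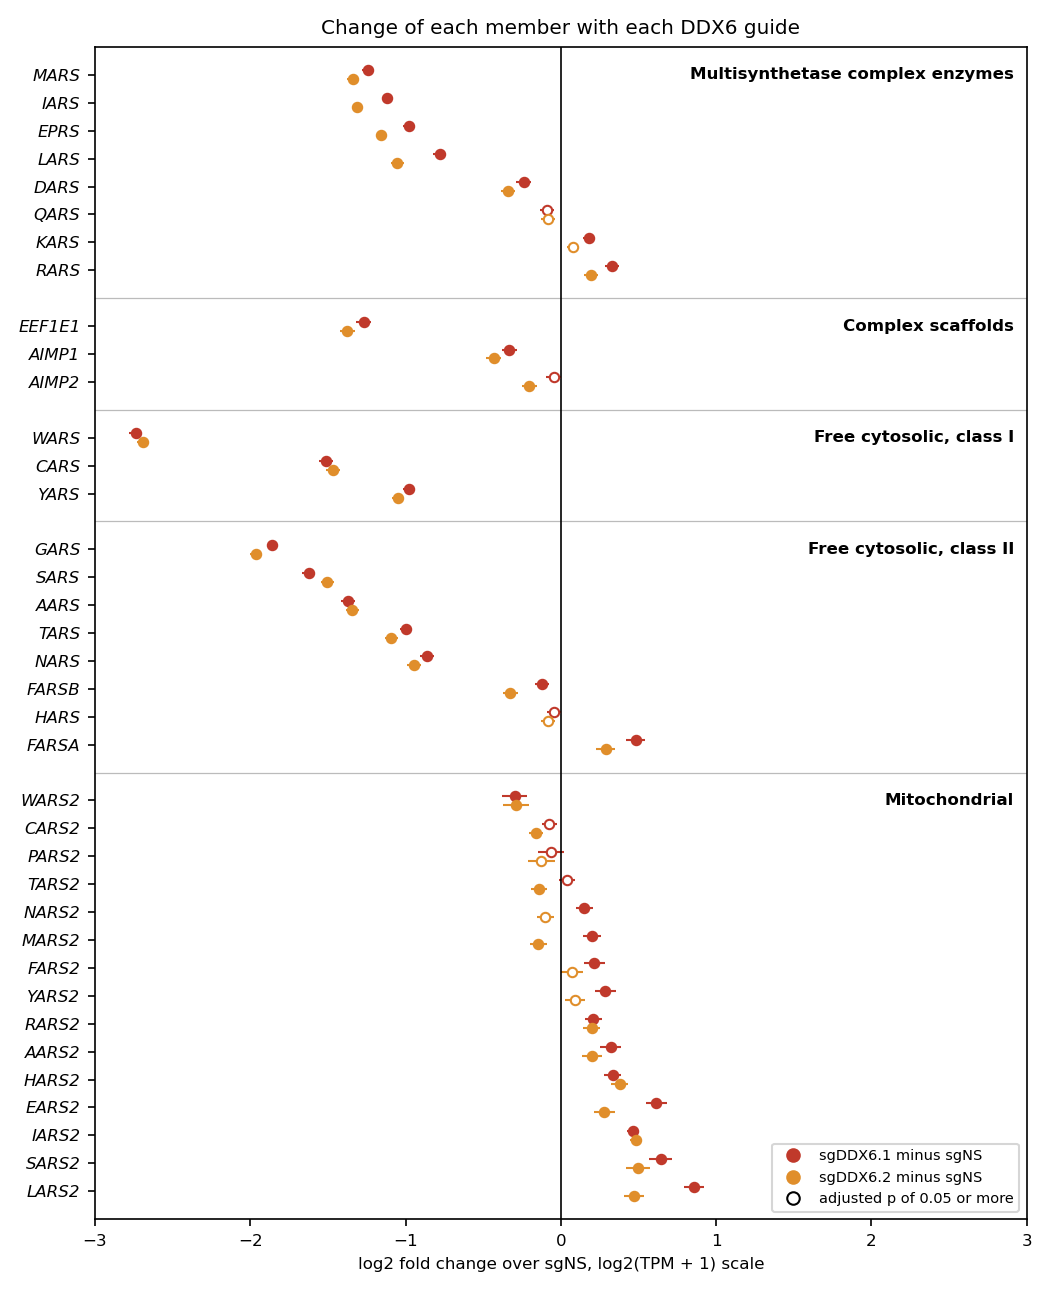
Log2 fold change of each of the 37 members for sgDDX6.1 and for sgDDX6.2, each against sgNS, on the log2(TPM + 1) scale, with bars of 1 SE from limma and open points where the adjusted p was 0.05 or more. WARS, GARS, SARS, CARS, AARS, MARS, IARS and EEF1E1 lie beyond -1 with both guides, down to -2.74 for WARS, while the mitochondrial enzymes lie between -0.30 and 0.86.

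The sum of TPM over the 19 cytosolic enzymes was 2865 and 2826 in sgDDX6.1 and 2629 and 2682 in sgDDX6.2, against 5697 and 5694 in sgNS. Over the 15 mitochondrial enzymes it was 634 and 622 in sgDDX6.1 and 586 and 593 in sgDDX6.2, against 517 and 514 in sgNS. Cytosolic enzymes thus held 0.483 times their sgNS share of the library with DDX6 targeted, and mitochondrial enzymes 1.18 times. The ratio of the sums was between 4.49 and 4.54 in the 4 sgDDX6 libraries, against 11.01 and 11.08 in sgNS, with no overlap.

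Among the 8 enzymes of the multisynthetase complex, 5 fell and 2 rose over both guides, beside 32.9% lower and 33.8% higher among all genes tested, and 1 was not called. MARS, for methionine and so also for initiator tRNA, had 135 and 136 TPM in sgDDX6.1 and 126 and 128 TPM in sgDDX6.2, against 316 and 330.0 TPM in sgNS. IARS, for isoleucine, had 249.5 and 243 TPM in sgDDX6.1 and 214 and 216 TPM in sgDDX6.2, against 531 and 541 TPM in sgNS. EPRS, a fused enzyme for glutamate and proline, had 221 and 217 TPM in sgDDX6.1 and 194 and 193 TPM in sgDDX6.2, against 437 and 428 TPM in sgNS. In each of these all 4 sgDDX6 libraries lay below both sgNS libraries. Their log2 fold changes were -1.29 (SE 0.03, adjusted p = 4.9e-11), -1.21 (SE 0.03, adjusted p = 3.4e-11) and -1.07 (SE 0.03, adjusted p = 1.25e-10). LARS, the leucine enzyme that also senses leucine for mTORC1, had 149 and 141 TPM in sgDDX6.1 and 118 and 122 TPM in sgDDX6.2, against 252 and 247 TPM in sgNS, a change of -0.92 (SE 0.04, adjusted p = 1.89e-09).

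Of the other enzymes of the complex, RARS and KARS rose over both guides, DARS fell and QARS was not called. RARS, for arginine, had 117 and 116 TPM in sgDDX6.1 and 103 and 109.5 TPM in sgDDX6.2, against 93.8 and 91.5 TPM in sgNS. KARS, for lysine in both compartments, had 193 and 195 TPM in sgDDX6.1 and 178 and 183 TPM in sgDDX6.2, against 169.5 and 171 TPM in sgNS. QARS, for glutamine, had 139 and 143 TPM in sgDDX6.1 and 138 and 145 TPM in sgDDX6.2, against 147 and 153 TPM in sgNS. All 4 sgDDX6 libraries were above sgNS for RARS and KARS and below it for QARS, by small margins. The log2 fold changes were 0.26 (SE 0.04, adjusted p = 0.000119) for RARS and 0.13 (SE 0.03, adjusted p = 0.00443) for KARS, while QARS with -0.08 (SE 0.04, adjusted p = 0.0719) was not called. By guide, KARS was called with sgDDX6.1 (0.18, adjusted p = 0.00149) and not with sgDDX6.2 (0.08, adjusted p = 0.0919). Over both guides KARS was no longer called (adjusted p = 0.0816) when the sgDDX6 libraries were fitted as a single group. DARS, for aspartate, fell by 0.29 on the log2 scale (SE 0.04, adjusted p = 7.26e-05).

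The 3 scaffolds differed in size of change. EEF1E1, also called AIMP3, had 88.9 and 91.7 TPM in sgDDX6.1 and 86.6 and 81.1 TPM in sgDDX6.2, against 224 and 215 TPM in sgNS. AIMP1, whose cleaved form acts as a cytokine, had 58.3 and 58.8 TPM in sgDDX6.1 and 53.96 and 55.1 TPM in sgDDX6.2, against 75.9 and 71.9 TPM in sgNS. AIMP2, the core scaffold, had 92.2 and 86.4 TPM in sgDDX6.1 and 79.9 and 80.1 TPM in sgDDX6.2, against 89.8 and 94.6 TPM in sgNS. EEF1E1 fell by 1.32 and AIMP1 by 0.38 on the log2 scale (adjusted p = 1.75e-10 and 8.59e-06), with no overlap of the groups. By guide, AIMP2 was called lower with sgDDX6.2 (-0.20, adjusted p = 0.00349) and not with sgDDX6.1 (-0.05, adjusted p = 0.428). AIMP2, whose sgDDX6.1 libraries overlap sgNS, had -0.12 (SE 0.04, adjusted p = 0.0218), a call that was lost without sgNS replicate 2 (adjusted p = 0.195) or without either sgDDX6.2 library (0.0575 and 0.0533), without a variance trend (0.0581) or with the sgDDX6 libraries fitted as a single group (0.188).

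The largest decreases among the members were those of enzymes outside the complex. All 3 free class I enzymes among the members fell, beside 32.9% of all genes tested. VARS, which is not a member, is given further on and was not called over both guides. WARS, for tryptophan and known as a gene induced by interferon gamma, had 91.9 and 92.96 TPM in sgDDX6.1 and 93.7 and 97.8 TPM in sgDDX6.2, against 620.3 and 625 TPM in sgNS. CARS, for cysteine, had 60.98 and 62.3 TPM in sgDDX6.1 and 64.1 and 63.3 TPM in sgDDX6.2, against 175 and 181 TPM in sgNS. YARS, for tyrosine, had 274 and 274 TPM in sgDDX6.1 and 256 and 267 TPM in sgDDX6.2, against 539.5 and 546 TPM in sgNS. The 4 sgDDX6 libraries lay within a narrow band far below sgNS for WARS, a change of -2.71 (SE 0.03, adjusted p = 1.21e-13). For CARS the change was -1.49 (SE 0.04, adjusted p = 3.2e-11) and for YARS -1.02 (SE 0.03, adjusted p = 1.85e-10).

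Of the 8 genes of free class II enzymes, 6 fell and 1 rose, beside 32.9% and 33.8% of all genes tested. GARS, for glycine in cytosol and mitochondria, had 163 and 159.6 TPM in sgDDX6.1 and 149 and 150.4 TPM in sgDDX6.2, against 591 and 583 TPM in sgNS. SARS, for serine and also the first step of selenocysteine tRNA, had 94.7 and 94.9 TPM in sgDDX6.1 and 101 and 106 TPM in sgDDX6.2, against 295 and 293 TPM in sgNS. AARS, for alanine, had 93.2 and 92.7 TPM in sgDDX6.1 and 92.3 and 97.2 TPM in sgDDX6.2, against 240.0 and 244 TPM in sgNS. Both sgNS libraries stood far above every sgDDX6 library in each of these. The log2 fold changes were -1.91 (SE 0.03, adjusted p = 1.01e-12), -1.56 (SE 0.04, adjusted p = 1.24e-11) and -1.36 (SE 0.04, adjusted p = 5.47e-11). TARS, for threonine, had -1.04 (SE 0.04, adjusted p = 3.45e-10) and NARS, for asparagine, -0.90 (SE 0.04, adjusted p = 2.89e-09).

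The 2 subunits of phenylalanyl-tRNA synthetase went opposite ways. FARSA, the catalytic alpha subunit, had 142 and 152 TPM in sgDDX6.1 and 126 and 131 TPM in sgDDX6.2, against 97.8 and 113 TPM in sgNS. FARSB, the beta subunit, had 82.1 and 84.5 TPM in sgDDX6.1 and 70.4 and 74.1 TPM in sgDDX6.2, against 90.5 and 90.9 TPM in sgNS. The sgDDX6 libraries were all above sgNS for FARSA and all below it for FARSB. FARSA rose by 0.39 on the log2 scale (SE 0.05, adjusted p = 6.03e-05) and FARSB fell by 0.22 (SE 0.04, adjusted p = 0.000405); FARSB missed the threshold when the sgDDX6 libraries were fitted as a single group (adjusted p = 0.0514). The ratio of FARSA to FARSB was not tested.

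**Figure D2:**
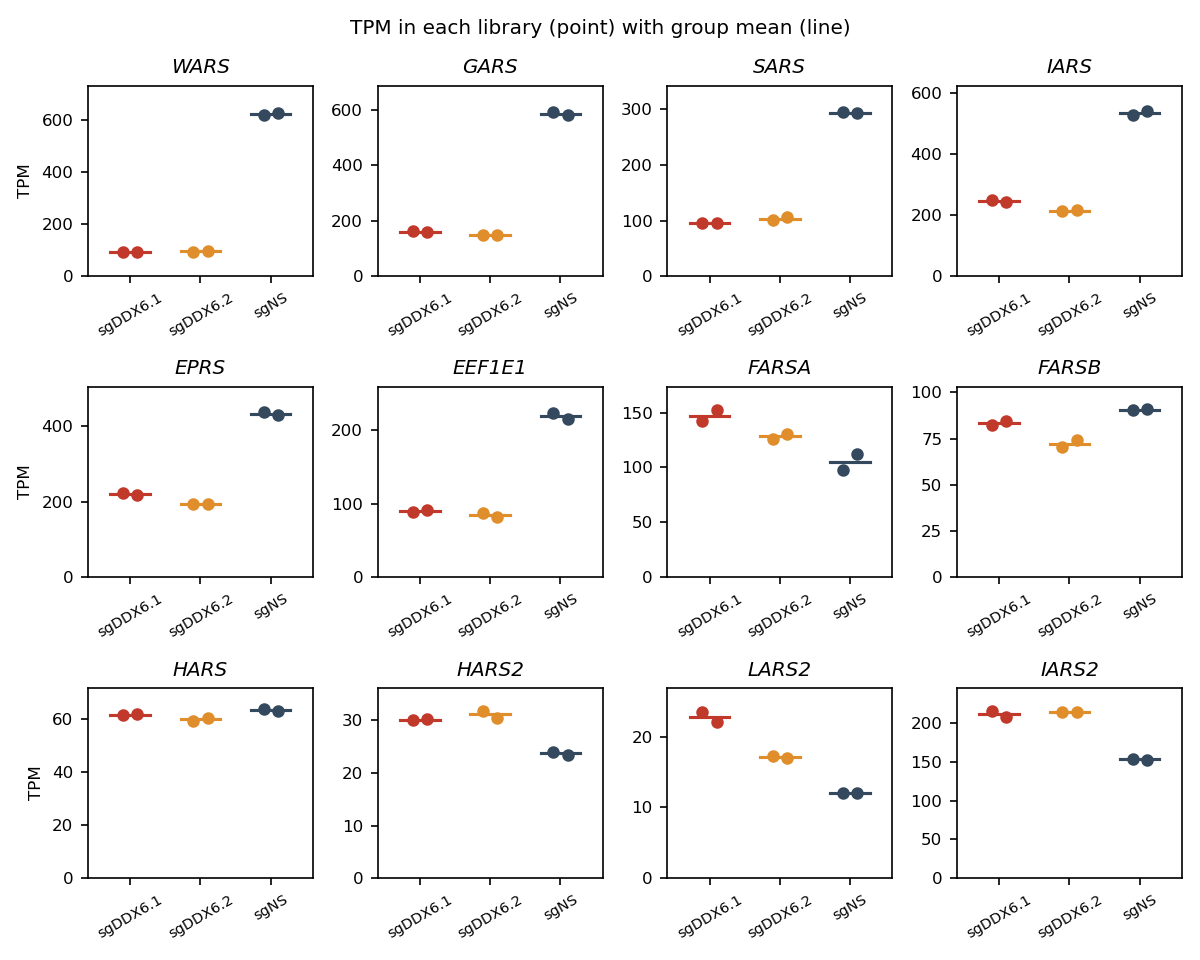
TPM of 12 members in each library (points) with the mean of the 2 libraries of a group (lines), for sgDDX6.1, sgDDX6.2 and sgNS, on linear axes that start at 0. WARS stands near 620 TPM in sgNS and between 91.9 and 97.8 in the 4 sgDDX6 libraries, HARS is nearly level, and HARS2, LARS2 and IARS2 are above sgNS with both guides.

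Among the mitochondrial enzymes, LARS2, SARS2 and IARS2 had the largest increases. LARS2, for leucine, had 23.4 and 22.04 TPM in sgDDX6.1 and 17.3 and 16.9 TPM in sgDDX6.2, against 12.1 and 12.1 TPM in sgNS. SARS2, for serine, had 21.97 and 24.3 TPM in sgDDX6.1 and 20.5 and 21.1 TPM in sgDDX6.2, against 15.4 and 13.5 TPM in sgNS. IARS2, for isoleucine and the most abundant mitochondrial member, had 216 and 208 TPM in sgDDX6.1 and 215 and 215 TPM in sgDDX6.2, against 154 and 153 TPM in sgNS. All 4 sgDDX6 libraries lay above both sgNS libraries in each, with changes of 0.67 (SE 0.06, adjusted p = 8.72e-07), 0.57 (SE 0.07, adjusted p = 1.33e-05) and 0.47 (SE 0.03, adjusted p = 2.33e-07). EARS2, which charges glutamate and also places it on mitochondrial glutamine tRNA, rose by 0.45 (adjusted p = 2.91e-05), and HARS2, AARS2 and RARS2 rose by 0.36, 0.26 and 0.20 on the log2 scale (adjusted p = 4.91e-05, 0.00175 and 0.00227). AARS2, for alanine, had 26.6 and 26.3 TPM in sgDDX6.1 and 23.1 and 25.5 TPM in sgDDX6.2, against 20.2 and 21.7 TPM in sgNS. RARS2, for arginine, had 52.6 and 50.4 TPM in sgDDX6.1 and 49.7 and 52.6 TPM in sgDDX6.2, against 43.3 and 45.5 TPM in sgNS. YARS2, for tyrosine, had 21.2 and 21.7 TPM in sgDDX6.1 and 19.5 and 17.8 TPM in sgDDX6.2, against 17.9 and 16.95 TPM in sgNS. The sgDDX6 libraries were above sgNS in AARS2 and RARS2, and in YARS2 1 sgDDX6.2 library lay within the sgNS range. By guide, YARS2 was called with sgDDX6.1 (0.29, adjusted p = 0.0029) and not with sgDDX6.2 (0.09, adjusted p = 0.255). YARS2 rose by 0.19 (adjusted p = 0.0129), a call lost without sgDDX6.2 replicate 1 (0.0567) or sgNS replicate 2 (0.103), or with the sgDDX6 libraries fitted as a single group (0.118).

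The 2 mitochondrial enzymes that fell were WARS2 and CARS2. WARS2, for tryptophan, had 9.91 and 9.83 TPM in sgDDX6.1 and 9.85 and 10.03 TPM in sgDDX6.2, against 13.4 and 11.4 TPM in sgNS. CARS2, for cysteine, had 76.4 and 77.8 TPM in sgDDX6.1 and 71.1 and 73.95 TPM in sgDDX6.2, against 80.1 and 82.3 TPM in sgNS. PARS2, for proline, had 6.90 and 6.54 TPM in sgDDX6.1 and 6.84 and 5.96 TPM in sgDDX6.2, against 6.95 and 7.17 TPM in sgNS. The sgDDX6 libraries were all below sgNS in each of these. WARS2 had -0.29 (SE 0.07, adjusted p = 0.00348) and CARS2 -0.12 (SE 0.04, adjusted p = 0.0208), and PARS2 with -0.09 (SE 0.07, adjusted p = 0.282) was not called. By guide, CARS2 was called lower with sgDDX6.2 (-0.16, adjusted p = 0.00888) and not with sgDDX6.1 (-0.07, adjusted p = 0.182). WARS2 lost its call without sgNS replicate 1, when its change was -0.18 (adjusted p = 0.0874), and CARS2 without sgDDX6.2 replicate 1 (0.0903) or sgNS replicate 2 (0.143), or with a single sgDDX6 group (0.122). TARS2, NARS2, MARS2 and FARS2 were not called over both guides, with changes of -0.05, 0.03, 0.03 and 0.14. FARS2, for phenylalanine, had 13.1 and 12.6 TPM in sgDDX6.1 and 11.3 and 11.8 TPM in sgDDX6.2, against 10.9 and 10.9 TPM in sgNS, with every sgDDX6 library above sgNS, and its adjusted p of 0.0504 lay next to the threshold.

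The cytosolic and mitochondrial enzymes for the same amino acid could be set side by side in 13 pairs. The log2 ratio of cytosolic to mitochondrial level, each as TPM + 1, was lower in all 4 sgDDX6 libraries than in both sgNS libraries in 11 pairs. It was higher in 1 pair (FARSA with FARS2) and overlapping in 1 (RARS with RARS2). Of all single genes tested, 31.9% lay below in this way and 31.5% above, and no such share was computed for ratios. Each ratio carries the changes of both its members, which are given singly, so it is no separate result. For HARS over HARS2 the ratio changed by -0.42, with -0.06 for HARS, not called, and 0.36 for HARS2. For WARS over WARS2 the log2 ratio was 3.09 and 3.12 in sgDDX6.1 and 3.13 and 3.16 in sgDDX6.2, against 5.43 and 5.66 in sgNS. For IARS over IARS2 it was 0.21 and 0.22 in sgDDX6.1 and -0.0024 and 0.0078 in sgDDX6.2, against 1.77 and 1.82 in sgNS, so mRNA levels of the 2 isoleucine enzymes were nearly equal with sgDDX6.2. For CARS over CARS2 the sign changed, with -0.32 in both sgDDX6.1 libraries and -0.15 and -0.22 in sgDDX6.2, against 1.11 and 1.13 in sgNS. The median over the 13 pairs was 2.06 and 2.08 in sgDDX6.1 and 2.24 and 2.27 in sgDDX6.2, against 3.44 and 3.43 in sgNS. An exact two-sided permutation test of 4 against 2 libraries cannot go below p = 0.133, which 12 of the 13 pairs reached, so that test can call no single pair; no other test of a pair's ratio was run.

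**Figure D3:**
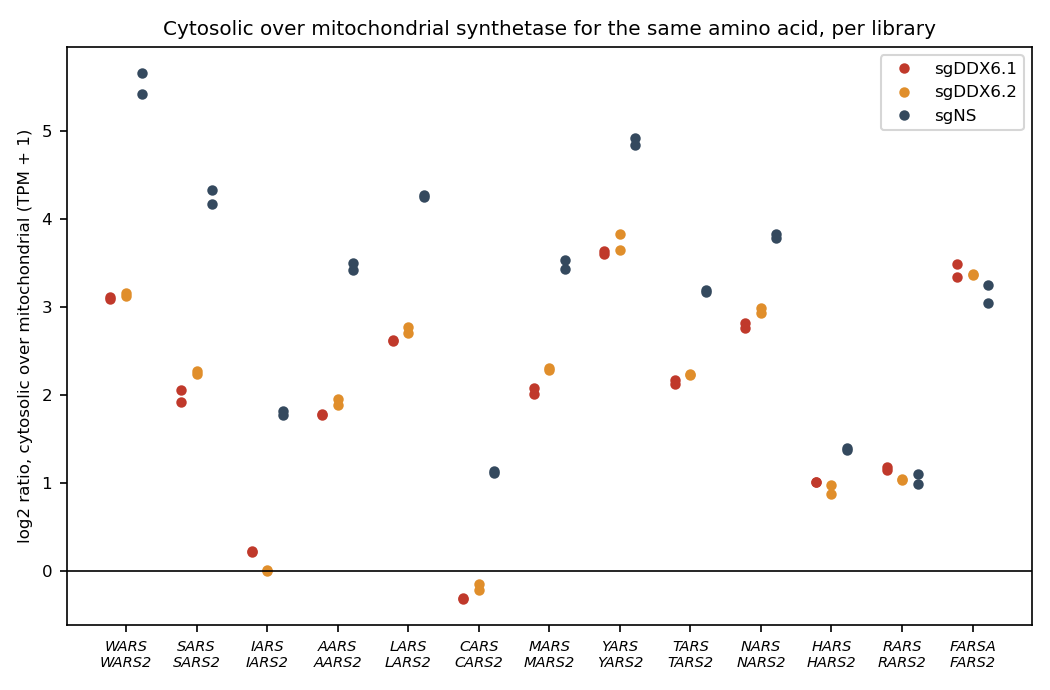
Log2 ratio of cytosolic to mitochondrial synthetase (TPM + 1) for 13 amino acids in each library of sgDDX6.1, sgDDX6.2 and sgNS, ordered by the size of the change. The sgNS points stand above the sgDDX6 points from WARS with WARS2 to HARS with HARS2, overlap them for RARS with RARS2 and lie below them for FARSA with FARS2.

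HARS and HARS2, the cytosolic and mitochondrial histidine enzymes, are neighbours that run in opposite directions on chromosome 5. In GENCODE release 29 HARS spans 140673904 to 140691862 on the minus strand and HARS2 spans 140691426 to 140699318 on the plus strand (GRCh38). RefSeq places their starts 85 bases apart, and the 84 bases between them are shown because a single short stretch faces both genes; no part of it is capitalized, since it holds no match to the core on either strand.
HARS and HARS2, chr5:140691371-140691454, plus strand: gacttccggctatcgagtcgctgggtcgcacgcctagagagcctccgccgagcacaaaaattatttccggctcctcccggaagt
HARS had 61.5 and 61.8 TPM in sgDDX6.1 and 59.2 and 60.5 TPM in sgDDX6.2, against 63.8 and 63.2 TPM in sgNS, a change of -0.06 (SE 0.04, adjusted p = 0.181) that was not called. HARS2 had 30.02 and 30.2 TPM in sgDDX6.1 and 31.8 and 30.4 TPM in sgDDX6.2, against 23.9 and 23.4 TPM in sgNS, with all 4 sgDDX6 libraries above sgNS and a change of 0.36 (SE 0.05, adjusted p = 4.91e-05). The annotated genes overlap by 437 bases and strand-specific counting is not stated, so reads from the overlap could be assigned to either gene.

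A list of 12 cytosolic enzymes had been drawn up from general knowledge as linked to ATF4, with earlier results of these data known. It holds AARS, CARS, EPRS, GARS, IARS, LARS, MARS, NARS, SARS, TARS, WARS and YARS. All 12 fell over both guides, beside 32.9% of all genes tested, and since the list was open to choice by these results, nothing is read from the count. Their median was -1.25, their changes lay between -2.71 and -0.90, and 10 reached a 2-fold decrease. Of the 7 other cytosolic enzymes (DARS, FARSA, FARSB, HARS, KARS, QARS, RARS), 2 fell, 3 rose and 2 were not called, with a median of -0.06 and none below -0.29. The core TGATGNAA was in the window of 7 of the 10 listed enzymes that have one. It was in none of the 9 other cytosolic enzymes and scaffolds that have one, beside 3.6% of protein-coding genes. This split goes by the same list, so nothing is read from it either. By class, the median was -1.07 for 9 class I and -0.60 for 10 class II cytosolic enzymes. The fused enzyme EPRS was counted in class I only, and its own change of -1.07 is that median. No median with EPRS in class II was computed, so nothing is read from the difference between the classes. By place, the median was -0.60 for 8 enzymes of the complex and -1.04 for 11 genes of free enzymes. For comparison, ASNS had -3.66, the serine enzyme PSAT1 -3.94 and ATF4 mRNA itself -0.70 on the same scale; whether ATF4 plays a part in the members' changes was not tested.

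The listed enzymes were also the abundant ones in sgNS. The same sgNS libraries enter both this level and the change, so part of such a link can be built in, and nothing is read from it. In sgNS the 13 members with the highest mean TPM were those 12 and EEF1E1, from WARS at 623 TPM to CARS at 178. With DDX6 targeted the order was another: WARS, rank 1 in sgNS, ranked 16 at 94.1 TPM over 4 libraries, GARS, rank 2 in sgNS, ranked 8 at 155, and YARS, NARS and IARS led at 268, 256 and 231 TPM. The mitochondrial enzyme IARS2 ranked 4 at 213 TPM, against rank 15 at 154 in sgNS. The highest cytosolic enzyme stood at 4.41 times the lowest with DDX6 targeted, against 9.80 times in sgNS. In sgNS the only neighbours among the 19 cytosolic enzymes whose libraries overlapped were YARS and IARS; with DDX6 targeted, where the 4 libraries of both guides enter, 13 of 18 neighbouring pairs overlapped.

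**Figure D4:**
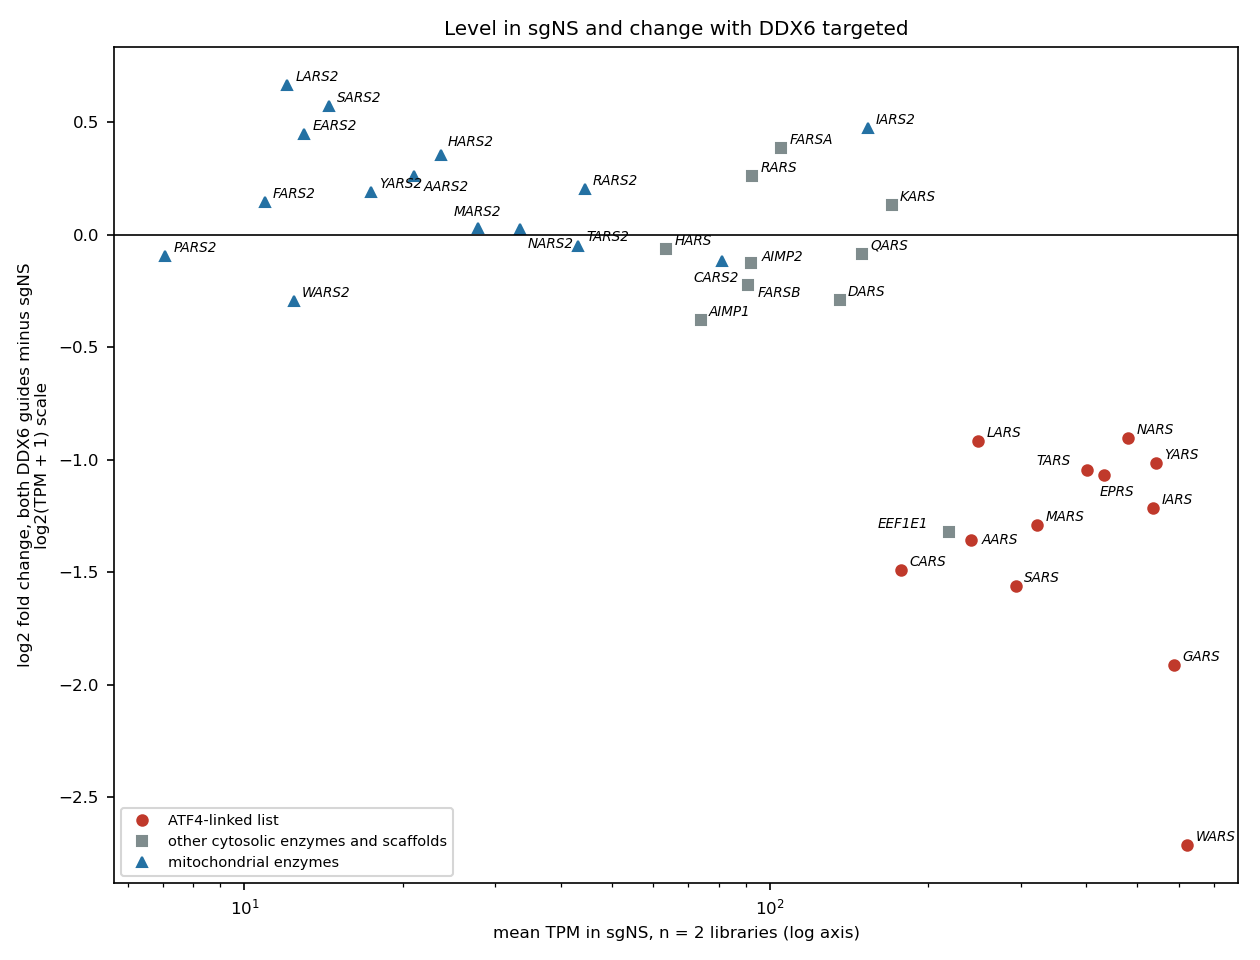
Mean TPM in sgNS (log axis, n = 2 libraries) against the log2 fold change of both DDX6 guides over sgNS for the 37 members, marked as the ATF4-linked list, other cytosolic enzymes and scaffolds, and mitochondrial enzymes. The 12 listed enzymes and EEF1E1 lie at 178 TPM or more in sgNS and at -0.90 or lower, and the other members lie between -0.38 and 0.67. The sgNS libraries enter both axes.

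Each guide was also set against sgNS alone. Both comparisons share the sgNS libraries. With sgDDX6.1, 16 of the 22 cytosolic members fell and 3 rose (median -0.92), beside 29.7% lower and 31.8% higher (61.6% in all) among all genes tested; 8 of the 22 fell at least 2-fold, against 2.59% of all genes. With sgDDX6.2, 17 fell and 2 rose (median -1.05), beside 32.7% lower and 31.5% higher (64.2% in all); 12 fell at least 2-fold, against 2.38%. Of the 15 mitochondrial enzymes, 11 rose and 1 fell with sgDDX6.1 (median 0.22), and 7 rose and 4 fell with sgDDX6.2 (median 0.09). The count of 4 was 1 without sgDDX6.2 replicate 1 or sgNS replicate 1 and 2 without sgDDX6.2 replicate 2 or sgNS replicate 2. The 1 lower with sgDDX6.1 was 0 without sgNS replicate 1, and the 2 cytosolic members higher with sgDDX6.2 numbered 1 without sgDDX6.2 replicate 2.

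Set directly against each other, the guides differed in 15 of the 37 members, 14 lower and 1 higher with sgDDX6.2 than with sgDDX6.1, while 18.6% of all genes tested were lower and 17.0% higher (35.6% in all). Without sgDDX6.1 replicate 1, sgDDX6.2 replicate 1 or sgDDX6.2 replicate 2, the 8 cytosolic members among the 14 numbered 4, 3 and 4; without sgDDX6.2 replicate 1 the 6 mitochondrial ones numbered 3, and the 1 higher, SARS, was not called when any single library was left out. LARS2 had the largest difference, -0.39 (SE 0.06, adjusted p = 0.000934), with the sgDDX6.2 libraries between sgDDX6.1 and sgNS. MARS2, for mitochondrial methionine, had 32.9 and 31.5 TPM in sgDDX6.1 and 24.7 and 25.5 TPM in sgDDX6.2, against 28.3 and 27.4 TPM in sgNS. It stood above sgNS with sgDDX6.1 (0.20, adjusted p = 0.00903) and below it with sgDDX6.2 (-0.14, adjusted p = 0.0421), and the guides differed by -0.35 (adjusted p = 0.000924). EARS2 differed by -0.34 (adjusted p = 0.00263). Of the cytosolic members, LARS, IARS and EPRS were lower by 0.27, 0.19 and 0.18 with sgDDX6.2 (adjusted p = 0.000755, 0.00204 and 0.00344), and WARS, at 0.05 (adjusted p = 0.356), was not called. In this comparison of the guides, LARS2, MARS2, EARS2, LARS, IARS and EPRS were called under all 16 alternatives, and the other 9 lost the call under at least 1. The calls of MARS2 against sgNS by guide were not followed singly under the alternatives. MARS2 is among the 4 mitochondrial enzymes lower with sgDDX6.2, a count that fell when any sgDDX6.2 or sgNS library was left out.

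Genes that handle tRNA before and after the charging step were counted in the same fit, over both guides. Of 13 other genes of charging and proofreading in the table, 3 rose and 3 fell (median 0.03), beside 33.8% higher and 32.9% lower among all genes tested. By guide, 5 were higher and 3 lower with sgDDX6.1 (median 0.17), and 3 were higher and 4 lower with sgDDX6.2 (median -0.095). Among all genes tested, 31.8% were higher and 29.7% lower with sgDDX6.1. With sgDDX6.2 these shares were 31.5% and 32.7%. The cytosolic valine enzyme VARS had 136 TPM in sgDDX6.1 and 109.9 TPM in sgDDX6.2, against 119 TPM in sgNS (means of 2 libraries), a change of 0.03 (SE 0.05, adjusted p = 0.525) that was not called over both guides. VARS was higher with sgDDX6.1 (0.19, adjusted p = 0.00898), had -0.12 with sgDDX6.2 (adjusted p = 0.068), and differed between the guides by -0.30 (adjusted p = 0.00127, sgDDX6.2 minus sgDDX6.1). GATB and QRSL1, subunits of the amidotransferase that makes glutaminyl-tRNA in mitochondria after EARS2, rose by 0.30 and 0.28 (adjusted p = 0.000502 and 0.000521). SEPSECS, which completes selenocysteine tRNA after SARS, fell by 0.59, the editing factor AARSD1 by 0.43 and the D-aminoacyl-tRNA deacylase DTD1 by 0.28 (adjusted p = 3.04e-06, 4.37e-05 and 0.000121).

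Of 18 genes of tRNA processing and export in the table, 11 rose and 5 fell (median 0.24), beside the same 33.8% and 32.9% of all genes. By guide, 11 were higher and 4 lower with sgDDX6.1 (median 0.34), and 9 were higher and 4 lower with sgDDX6.2 (median 0.13). Among all genes tested, 31.8% were higher and 29.7% lower with sgDDX6.1. With sgDDX6.2 these shares were 31.5% and 32.7%. XPOT, the exporter of tRNA from the nucleus, had 253 TPM in sgDDX6.1 and 215 TPM in sgDDX6.2, against 459.5 TPM in sgNS (means of 2 libraries), a change of -0.98 (SE 0.04, adjusted p = 1.23e-09). TRNT1, which adds the CCA end that synthetases charge, fell by 0.70 (adjusted p = 5.45e-07). POP1 and RPP40 of RNase P, which trims the 5′ end, rose by 0.79 and 0.63, and ELAC2, which trims the 3′ end, by 0.62 (adjusted p = 2.16e-07, 6.75e-07 and 2.96e-07).

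Of 21 genes of RNA polymerase III transcription, which makes tRNA, 9 rose and 4 fell (median 0.11), beside 33.8% higher and 32.9% lower among all genes tested. By guide, 10 were higher and 3 lower with sgDDX6.1 (median 0.16), and 5 were higher and 5 lower with sgDDX6.2 (median -0.0054). Among all genes tested, 31.8% were higher and 29.7% lower with sgDDX6.1. With sgDDX6.2 these shares were 31.5% and 32.7%. GTF3C6 and GTF3C1 of the factor that binds tRNA genes rose by 0.58 and 0.45 (adjusted p = 2.56e-08 and 7.1e-06). POLR3C fell by 0.38, GTF3C3 by 0.31 and MAF1, a repressor of the polymerase, by 0.23 (adjusted p = 9.19e-06, 4.83e-05 and 0.000211). Of the factors that bring charged tRNA to the ribosome, all 4 cytosolic genes fell and both mitochondrial genes rose over both guides; with sgDDX6.2 alone 3 of the 4 were lower and 1 of the 2 was higher. EEF1A1 fell by 0.59 and its exchange factor subunit EEF1B2 by 0.51 (adjusted p = 1.89e-09 and 2.57e-08), while TUFM and TSFM of the mitochondrion rose by 0.17 and 0.20 (adjusted p = 0.000892 and 0.00579).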

How the data were processed

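The series holds 6 libraries of poly(A)+ RNA from Mono-mac-6 cells, in the groups sgDDX6.1, sgDDX6.2 and sgNS with 2 each, taken from the titles. The authors deposited TPM with 2 decimals for 18806 gene symbols. RSEM 1.2.31 and GRCh38 are named per the submitters' processing notes; the aligner, annotation and strandedness were not given in the sources used here. Every library was scaled to the same total, so a gene's TPM also depends on what other genes do, and depth and its precision are unknown. RSEM divides reads that fit several genes, and 13 of the 37 members have a pseudogene named after them in GENCODE release 29.

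From the TPM, log2(TPM + 1) was computed, 11151 genes reaching 1 TPM in 2 libraries were kept, and 3 group means were fitted with limma 3.58.1 in R 4.3.3 (variance trend, 3 residual degrees of freedom). P-values are two-sided and were adjusted by Benjamini-Hochberg over all genes of a contrast, with a threshold of 0.05. Fold changes are on the log2(TPM + 1) scale, which understates changes of low genes, and each is an average of both guides unless a guide is named. Promoter windows are from RefSeq (GRCh38.p14), searched for one motif and its reverse complement. The members and lists were chosen with earlier results of these data known, and lists are described by counts and medians without a set test. Members are given with the value of every library where they are among the 3 lowest or 3 highest changes of their role group, or are the partner of such a member; of the related lists, up to 3 genes in each direction with the lowest adjusted p are named, except a few that are not reported here. VARS and the genes set beside the members were named outside this rule. Alternatives were other pseudocounts, filters, scalings and limma settings, a replicate block, only the groups compared, and leaving out each library. For the contrast over both guides, the alternative named only the groups compared kept all 6 libraries and fitted the sgDDX6 libraries as a single group.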

Additional observations from a re-analysis of the deposited data

Results flagged for a closer look

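For 15 members the change against sgNS differed between the guides, by limma's test of sgDDX6.2 minus sgDDX6.1 with Benjamini-Hochberg adjustment over all 11151 genes tested. On the log2(TPM + 1) scale the members lower with sgDDX6.2 were LARS2 (-0.39), MARS2 (-0.35), EARS2 (-0.34), LARS (-0.27), NARS2 (-0.25), FARSB (-0.20), YARS2 (-0.20), IARS (-0.19), FARSA (-0.19), TARS2 (-0.18), EPRS (-0.18), AIMP2 (-0.16), RARS (-0.13) and GARS (-0.10). The member higher with sgDDX6.2 was SARS (0.12). Among all genes tested 18.6% were lower and 17.0% were higher in the same comparison. Adjusted p-values ran from 0.000755 for LARS to 0.0445 for GARS.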

How the results depend on the processing

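The 16 alternatives were run for single genes over both guides (37 members and 4 other genes) and for the 15 members that differed between the guides, and none of these log2 fold changes reversed its sign. Over both guides 14 of 656 comparisons of a gene's value with an alternative lost the threshold and 9 gained it, and between the guides 54 of 240 lost it; the cause was not tested. The count of mitochondrial enzymes lower over both guides, 2, was 1 with only the groups compared and between 1 and 2 with single libraries left out. With sgDDX6.1 that count, 1, was 2 under quantile normalization and between 0 and 1 with libraries left out, and with sgDDX6.2, 4, it was between 1 and 4. The count of cytosolic members higher with sgDDX6.2, 2, was between 1 and 2 with libraries left out. Between the guides, the count of cytosolic members lower with sgDDX6.2, 8, was 4 under quantile normalization, 5 under median centring, 4 without the variance trend and between 3 and 7 with libraries left out (3 without sgDDX6.2 replicate 1). The 1 higher was 0 without a filter, without the trend, with only the groups compared and without any single library, and the 6 mitochondrial enzymes lower were between 3 and 6. The counts of cytosolic members lower were between 16 and 17 over both guides with libraries left out, and of mitochondrial members higher between 7 and 9. The change of the median pair ratio, -1.27, was -1.22 with a pseudocount of 5, and between -1.28 and -1.26 with libraries left out. Scalings moved the median of all genes by less than 0.1. The replicate numbers are not said to pair libraries, and deviations of same-numbered libraries correlated at 0.26, 0.10 and 0.04; with the replicate block, 13 cytosolic members were lower with sgDDX6.2 than with sgDDX6.1, and QARS and FARS2 passed the threshold over both guides (adjusted p = 0.0212 and 0.0462). With 2 libraries a group and no counts, small changes near the threshold are the least certain.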
